A study of Mus musculus with 4 samples.

Results

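F-box proteins are the parts of SCF ubiquitin ligases that choose what is destroyed. The F-box docks onto SKP1, SKP1 joins the scaffold cullin CUL1 and the RING protein RBX1, and a second domain of the F-box protein binds the substrate. Genes named Fbxw carry WD40 repeats for that purpose, Fbxl genes leucine-rich repeats, and Fbxo genes other domains. In mouse, a tandem array of Fbxw genes on chromosome 9 is known for expression in the oocyte. The genes described here are those whose symbols read Fbxl, Fbxo or Fbxw followed by a number, without Fbxo5 and Fbxo43, which act on the anaphase-promoting complex. There were 77 such genes among 53677 symbols: 24 named Fbxw, 18 Fbxl and 35 Fbxo.

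They were measured by polyA RNA-seq of mouse oocytes in the germinal vesicle (GV) state, the prophase arrest that precedes maturation. In one group Ell3, an RNA polymerase II elongation factor, had been knocked down (Ell3 KD), and the other held control oocytes (Ctrl), with 2 libraries each and 5 pooled oocytes per library. All females had been primed 48 h earlier with PMSG (7.5 IU), a hormone that stimulates follicle growth. The sources used here do not give the strain, the age, the means of knockdown or what the control oocytes received. The submitters made the comparison to see whether transcription bears on the meiotic effect.

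The Ell3 KD libraries held 89632815 and 65722415 counts and the Ctrl libraries 45131278 and 48669267, so the groups differed in depth. A level is given as CPM, the count relative to the library total after scaling by TMM factors, which align the libraries. The targeted gene Ell3 had 2.88 and 2.80 CPM in Ell3 KD, against 8.12 and 9.78 CPM in Ctrl, and 65.6% of its exon length overlaps Serinc4 on the same strand. The 10 oocyte markers summed to 17572 and 17550 CPM in Ell3 KD and 18521 and 18155 CPM in Ctrl, and none was at 0. Of these 10, 2 were called higher and 4 lower (edgeR, adjusted p under 0.05), beside 21.1% and 21.8% of all genes tested. Oosp1 (log2 fold change 0.46) and Ooep (0.40) rose, and Gdf9 (-0.20), Nobox (-0.27), Nlrp5 (-0.23) and Ell3 itself fell. Markers of cumulus and granulosa cells summed to 27.3 and 29.3 CPM in Ell3 KD and 29.7 and 27.6 CPM in Ctrl over 12 genes, and those of theca and stroma to 3.20 to 3.54 CPM in all 4 libraries over 8 genes. Of 8 blood markers, 5 had no count in any library, and the sum was 1.57 and 1.25 CPM in Ell3 KD and 3.43 and 3.52 CPM in Ctrl. Single markers of other cells moved as well. Inha had 2.18 and 2.47 CPM in Ell3 KD, against 0.941 and 1.13 CPM in Ctrl. The stromal gene Dcn had 1.77 and 1.99 CPM in Ell3 KD, against 0.766 and 0.952 CPM in Ctrl. Both were called higher, and the macrophage genes Cd68 and Csf1r lower. Fshr, Star and Acta2 lay lower in both Ell3 KD libraries than in either Ctrl library but were not called. Of the 12 granulosa markers, 1 and 1 were at 0 counts in Ell3 KD, against 5 and 4 in Ctrl. Amh, Foxl2, Gatm and Amhr2 had 3 to 9 counts in Ell3 KD libraries and 0 in Ctrl. Has2 had 2 and 2 counts in Ell3 KD, against 7 and 3 in Ctrl, and Slc38a3 0 and 0, against 0 and 3. Cyp19a1, at 16.2 to 18.7 CPM, carried most of the granulosa sum. The part of these markers in the results was not tested.

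The array on chromosome 9 held 15 of the 77 genes. It spans 651 kb of GRCm38, from 109139447 to 109790670, with all 15 genes on the minus strand and gaps of 12.1 to 38.7 kb between neighbours. In order of position the genes are Fbxw21, Fbxw13, Fbxw20, Fbxw14, Fbxw28, Fbxw22, Fbxw16, Fbxw19, Fbxw23, Fbxw15, Fbxw24, Fbxw25, Fbxw18, Fbxw26 and Fbxw27. GENCODE annotates 14 of them as protein-coding and Fbxw23 as a transcribed pseudogene. The longest transcripts of the genes were 57.9% to 99.2% identical over the 105 pairs, with a median of 83.1%. Fbxw14 and Fbxw28 are the closest pair, at 99.2% over 1619 aligned bases. Of the 100-base windows in their transcripts, 44.8% of those in Fbxw14 and 48.3% of those in Fbxw28 occur unchanged in another gene, against at most 3.68% for the other 13. How the counting handled reads that map to several genes was not given, so counts of Fbxw14 and Fbxw28 cannot be told apart with certainty.

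The start regions of the array are also near copies. RefSeq (GRCm38.p6) gave windows of 250 bases before to 50 bases after the start for 12 of the 15 genes. The RefSeq start lies within 21 bases of the GENCODE gene end for 11 of them, but 8.33 kb beyond it for Fbxw23, so that window is not comparable with the others. The 11 windows were 84.9% to 97.7% identical in pairs, with a median of 91.6%. The windows shown are those of the pair with the largest changes in the array (Fbxw14 and Fbxw28), of its most abundant gene (Fbxw24) and of its neighbour Fbxw25, which did not pass the test. They lie on the minus strand at chr9:109287627-109287926, chr9:109339610-109339909, chr9:109626010-109626309 and chr9:109664603-109664902. Capitals mark E-boxes (CANNTG), the letters bound by basic helix-loop-helix factors, which include the oocyte factor FIGLA.
Fbxw14: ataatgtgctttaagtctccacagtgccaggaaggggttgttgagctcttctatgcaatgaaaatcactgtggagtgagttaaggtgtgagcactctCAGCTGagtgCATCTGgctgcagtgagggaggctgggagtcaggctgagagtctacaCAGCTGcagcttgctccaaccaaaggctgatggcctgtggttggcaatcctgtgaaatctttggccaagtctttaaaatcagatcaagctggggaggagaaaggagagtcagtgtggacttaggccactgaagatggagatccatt
Fbxw28: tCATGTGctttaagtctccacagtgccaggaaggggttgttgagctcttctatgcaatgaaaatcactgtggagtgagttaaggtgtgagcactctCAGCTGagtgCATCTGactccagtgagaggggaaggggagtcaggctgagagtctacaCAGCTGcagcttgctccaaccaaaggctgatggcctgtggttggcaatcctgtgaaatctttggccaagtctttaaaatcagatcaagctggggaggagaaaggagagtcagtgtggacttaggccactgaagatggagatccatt
Fbxw24: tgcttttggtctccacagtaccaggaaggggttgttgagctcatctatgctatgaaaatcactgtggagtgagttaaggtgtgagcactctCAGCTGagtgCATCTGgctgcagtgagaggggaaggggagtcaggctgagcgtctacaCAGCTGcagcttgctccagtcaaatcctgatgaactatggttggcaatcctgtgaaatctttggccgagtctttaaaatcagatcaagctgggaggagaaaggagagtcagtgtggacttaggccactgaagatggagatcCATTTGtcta
Fbxw25: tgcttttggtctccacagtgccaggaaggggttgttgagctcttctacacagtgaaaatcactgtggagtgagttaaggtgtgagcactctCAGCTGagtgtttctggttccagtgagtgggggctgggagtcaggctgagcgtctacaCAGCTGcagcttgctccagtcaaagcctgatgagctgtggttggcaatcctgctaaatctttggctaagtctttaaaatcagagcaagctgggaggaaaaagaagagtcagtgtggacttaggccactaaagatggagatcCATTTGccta

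An E-box was present in 12 of the 12 windows, that of Fbxw23 included, and in 72.3% of all 32851 RefSeq windows of that length. The form CAGCTG, looked for after the windows had been seen, was present in the 11 comparable windows and in 16.3% of all windows. Fbxw24, Fbxw25 and Fbxw15 carry it at the same offsets, 159 and 101 bases before the start. The NOBOX element TAATTG (2628 of the 32851 windows) and the TATA box TATAAA (13.6% of them) had no match in the 12 windows, with both strands searched for each motif. These are matches of letters only, and CAGCTG is one of the forms that CANNTG takes. Fbxw19 and Fbxw25, which did not pass the test, carry CAGCTG at 2 places, as Fbxw24 does.

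The array made up most of the F-box counts of the oocyte. It took 85.0% and 85.0% of all counts of the 77 genes in Ell3 KD and 82.9% and 82.7% in Ctrl, and 1.77% and 1.77% of all counts of a library in Ell3 KD against 1.65% and 1.60% in Ctrl. Per kilobase of exon (RPKM), all 15 array genes lay above the other 62. Fbxw24, reported to act on the synaptonemal complex protein SYCP3 in female meiosis, was the most abundant, with a mean level of 2900 RPKM in Ell3 KD and 2654 RPKM in Ctrl, and it ranked 12th by CPM and 8th by RPKM among all genes. Fbxw16 followed at 1032 RPKM in Ell3 KD and 940 RPKM in Ctrl. Fbxw15, Fbxw18, Fbxw28 and Fbxw14 had mean levels of 596 to 908 RPKM in the 2 groups, and the remaining 9 lay between 103 and 441 RPKM. The lowest was Fbxw23, the annotated pseudogene, at 103 RPKM in Ell3 KD and 105 RPKM in Ctrl. In the order of levels Fbxw27 and Fbxw21 were neighbours at a mean of 286.5 and 286.4 RPKM over the 4 libraries. Their order differed between the groups. In Ell3 KD Fbxw21 had 300.6 and 309.2 RPKM and Fbxw27 297.3 and 297.7 RPKM. In Ctrl Fbxw21 had 268.0 and 268.0 RPKM and Fbxw27 276.1 and 275.0 RPKM. With the longest transcript as the length, the means were 360.9 RPKM for Fbxw27 and 312.8 RPKM for Fbxw21.

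**Figure D1:**
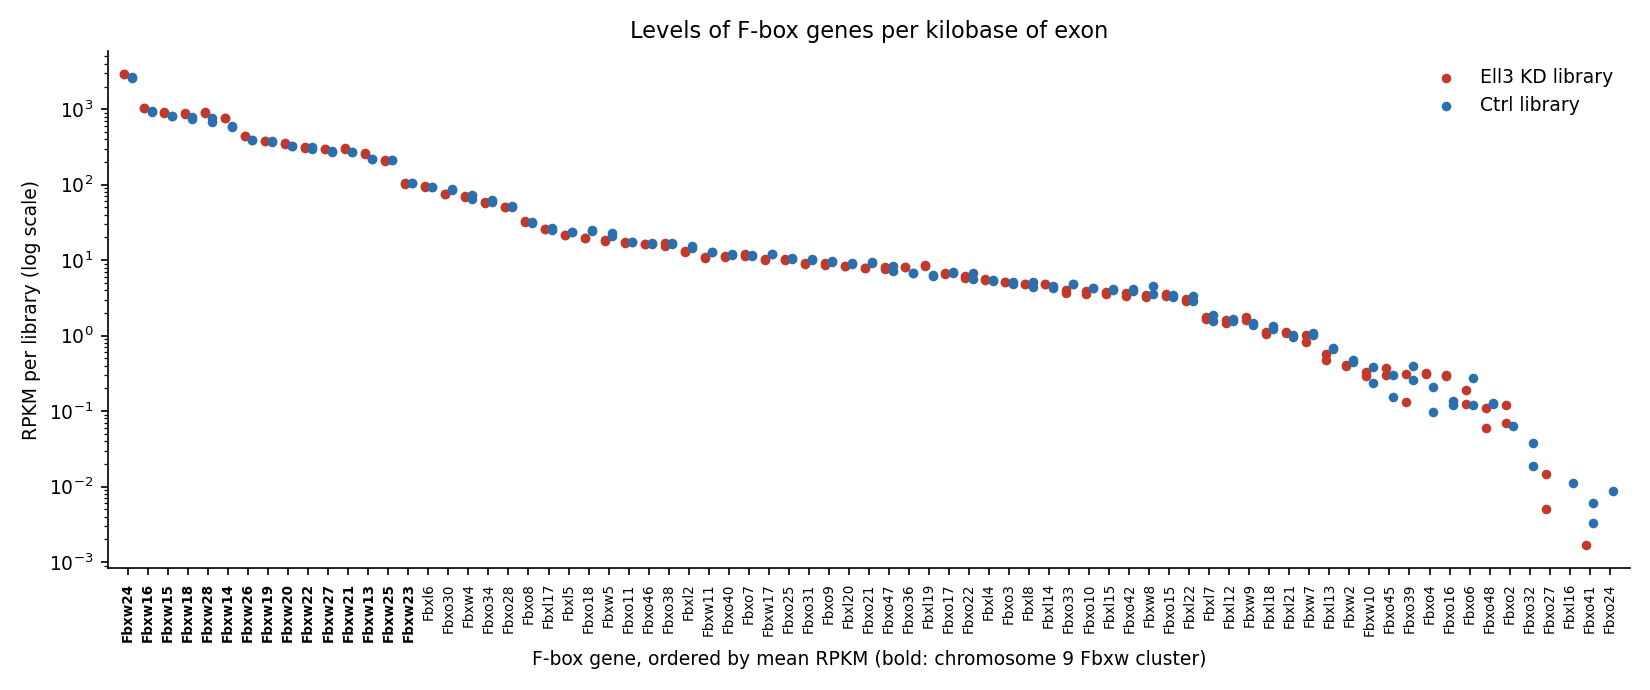
RPKM of each F-box gene in each library on a log scale, genes ordered by mean level, with Ell3 KD libraries in red to the left and Ctrl libraries in blue. The 15 array genes (bold) take the first 15 places. Libraries at 0 are not drawn, and Fbxo44, at 0 in every library, and 1 other gene are left out.

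Outside the array, the genes with the highest levels per length were Fbxl6 (95.5 RPKM in Ell3 KD and 93.5 in Ctrl), Fbxo30 (75.0 RPKM in Ell3 KD and 86.6 in Ctrl) and Fbxw4 (69.3 RPKM in Ell3 KD and 68.0 in Ctrl). Fbxo30 and Fbxo34 (57.9 RPKM in Ell3 KD and 61.6 in Ctrl) have both been reported to take part in the meiotic divisions of mouse oocytes. Next came Fbxo28, Fbxo8 with a Sec7 domain, Fbxl17, which acts in quality control of BTB protein dimers, Fbxl5, the iron-responsive F-box protein that targets IRP2, Fbxo18 (annotated as Fbh1), a DNA helicase, and Fbxw5, between 18.4 and 51.2 RPKM in the 2 groups. At the other end, 7 genes did not pass the filter on low counts: Fbxl16, Fbxo2, Fbxo24, Fbxo27, Fbxo32, Fbxo41 and Fbxo44. Fbxo32, the muscle atrophy gene atrogin-1, had 0 and 0 counts in Ell3 KD and 6 and 13 in Ctrl. A count of 0 allowed up to 0.0335 and 0.0456 CPM in those Ell3 KD libraries before TMM scaling, and Ctrl had 0.131 and 0.263 CPM. The other 6 had at most 10 counts in any library.

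Differences between Ell3 KD and Ctrl were tested with edgeR over all genes and called at an adjusted p under 0.05 (Benjamini-Hochberg). Of the 70 F-box genes tested, 14 were called higher and 16 lower. Over all 17879 genes tested, 21.1% were called higher and 21.8% lower, 42.9% in all, so the family as a whole lay near the background. With a filter of at least 1 CPM in 2 libraries, the same 14 and 16 genes were called, beside 48.6% of all genes. The median log2 fold change of the 70 was -0.02, against -0.0024 over all genes tested. For 64 of the 70 the 95% interval lay within a 2-fold change either way. This held for 12323 of all 17879 genes tested and for 11991 of the 13280 with a mean of 1 CPM or more. Array genes differ from the other members in level and transcript length as well as in place, and these were not told apart. Of the 14 rises 11 were in the array, and of the 16 falls none was. Beside these, the groups did not overlap in CPM for 21 members that were higher and 25 that were lower, where 35.0% and 35.7% of all genes tested did so. Whether replicate libraries stem from different females is not stated, and the p-values therefore reflect only library-to-library spread, possibly technical. Each library held 5 oocytes, and levels are shares of a library, so the amount of RNA per oocyte cannot be read from them. With an assumed coefficient of variation of 0.2 between libraries, 1 member was called higher (Fbxo16, singled out after its value was seen) and 0 lower, against 4.82% and 6.17% of all genes.

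**Figure D2:**
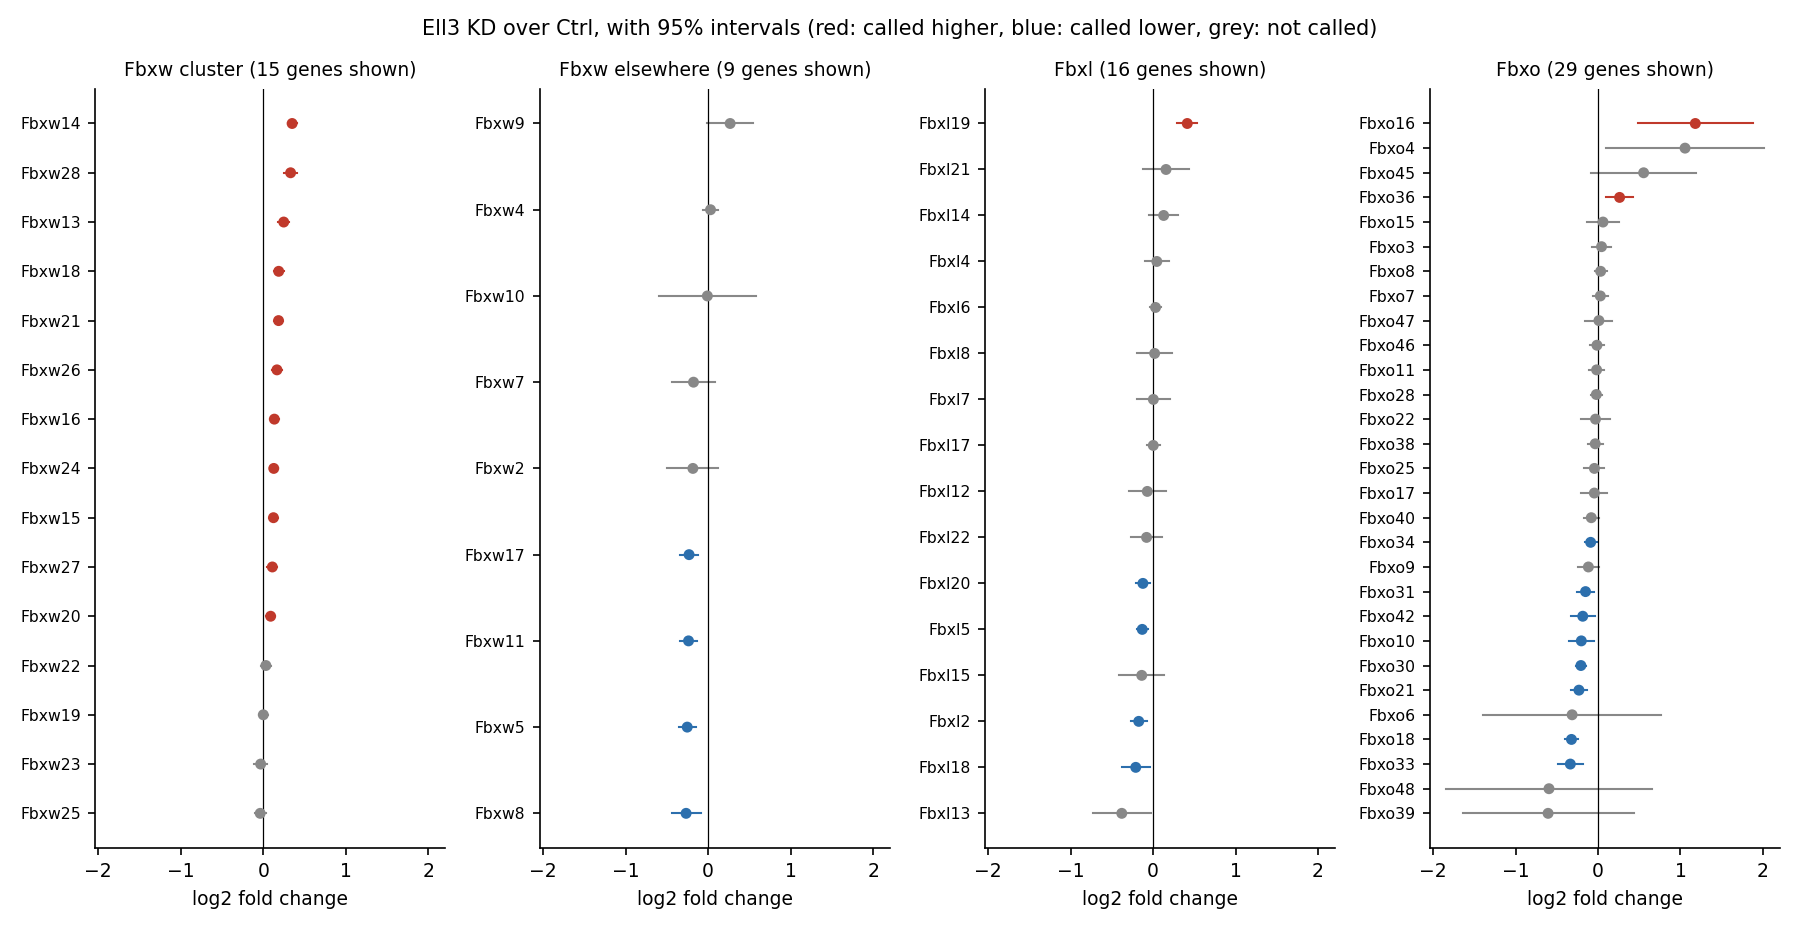
Log2 fold change of Ell3 KD over Ctrl for the F-box genes tested, with 1 that was not called left out, in 4 panels by subfamily, with 95% intervals as lines. Red marks genes called higher, blue those called lower and grey the rest. In the array, 11 of 15 points are red and none is blue, whereas the other panels hold 3 red and 16 blue points.

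In the array, 11 of 15 genes rose in Ell3 KD and none fell, with a median log2 fold change of 0.13. Among all genes tested, 21.1% were called higher and 21.8% lower. For the 506 genes at or above the lowest array level with transcripts of at most 2244 bases, these were 54.7% and 11.9%. The median of those 506 genes was 0.10. The 11 rises in the array were all small, with fitted folds of 1.06 to 1.28. The summed level of the array was 17872 and 17977 CPM in Ell3 KD, against 16327 and 15819 CPM in Ctrl, and the groups did not overlap. The sum was 11.5% higher in Ell3 KD (17924 ± 74.4 CPM in Ell3 KD and 16073 ± 359 CPM in Ctrl, SD, n = 2 each). The exact two-sided permutation test of the sum gave p = 0.333, the smallest that 2 libraries against 2 allow. On plain library totals, without TMM factors, the sum was 8.51% higher.

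Fbxw14 had 1617 and 1596 CPM in Ell3 KD, against 1277 and 1243 CPM in Ctrl. Both Ell3 KD libraries were above both Ctrl libraries, and the log2 fold change was 0.35 ± 0.03 (SE; adjusted p = 1.36e-10 by edgeR). Its near copy Fbxw28 had 1753 and 1791 CPM in Ell3 KD, against 1500 and 1315 CPM in Ctrl. The Ctrl libraries lay farther apart here, and the log2 fold change was 0.33 ± 0.04 (adjusted p = 7.97e-08 by edgeR, 0.00402 by DESeq2). That change was 0.24 without Ctrl replicate 2 and 0.43 without Ctrl replicate 1. Summed into 1 gene, because their reads cannot be separated with certainty, the pair had 3370 and 3387 CPM in Ell3 KD, against 2777 and 2558 CPM in Ctrl. The summed pair rose by 0.34 ± 0.03 on the log2 scale (adjusted p = 9.79e-10 by edgeR). The next gene in size of change, Fbxw13, lies to the left of this pair on the far side of Fbxw20. It had 380.9 and 401.5 CPM in Ell3 KD, against 329.9 and 328.5 CPM in Ctrl, a log2 fold change of 0.25 ± 0.03 (adjusted p = 9.83e-07 by edgeR).

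The most abundant gene, Fbxw24, had 4306 and 4324 CPM in Ell3 KD, against 4002 and 3896 CPM in Ctrl. The groups did not overlap, and the log2 fold change was 0.13 ± 0.02 (adjusted p = 1.29e-04 by edgeR). Fbxw16 had 1865 and 1854 CPM in Ell3 KD, against 1705 and 1681 CPM in Ctrl, and rose by 0.14 ± 0.03 on the log2 scale (adjusted p = 1.44e-04 by edgeR). Fbxw18 had 1319 and 1342 CPM in Ell3 KD, against 1206 and 1130 CPM in Ctrl, and rose by 0.19 ± 0.03. Fbxw21 and Fbxw26 rose by 0.19 ± 0.03 and 0.17 ± 0.03 on the log2 scale, with no overlap between the groups. Fbxw15, Fbxw27 and Fbxw20 rose by 0.12 ± 0.03, 0.11 ± 0.03 and 0.09 ± 0.03, and the highest edgeR adjusted p of these 6 genes was that of Fbxw20, 0.0122. Without Ell3 KD replicate 2 the rise of Fbxw20 was not called (adjusted p = 0.141 by edgeR). Exons of Fbxw15 and Fbxw16 overlap the antisense genes Gm42756 and Gm42494 over 11.2% and 11.7% of their length, and neither of these exceeded 38 counts in any library.

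**Figure D3:**
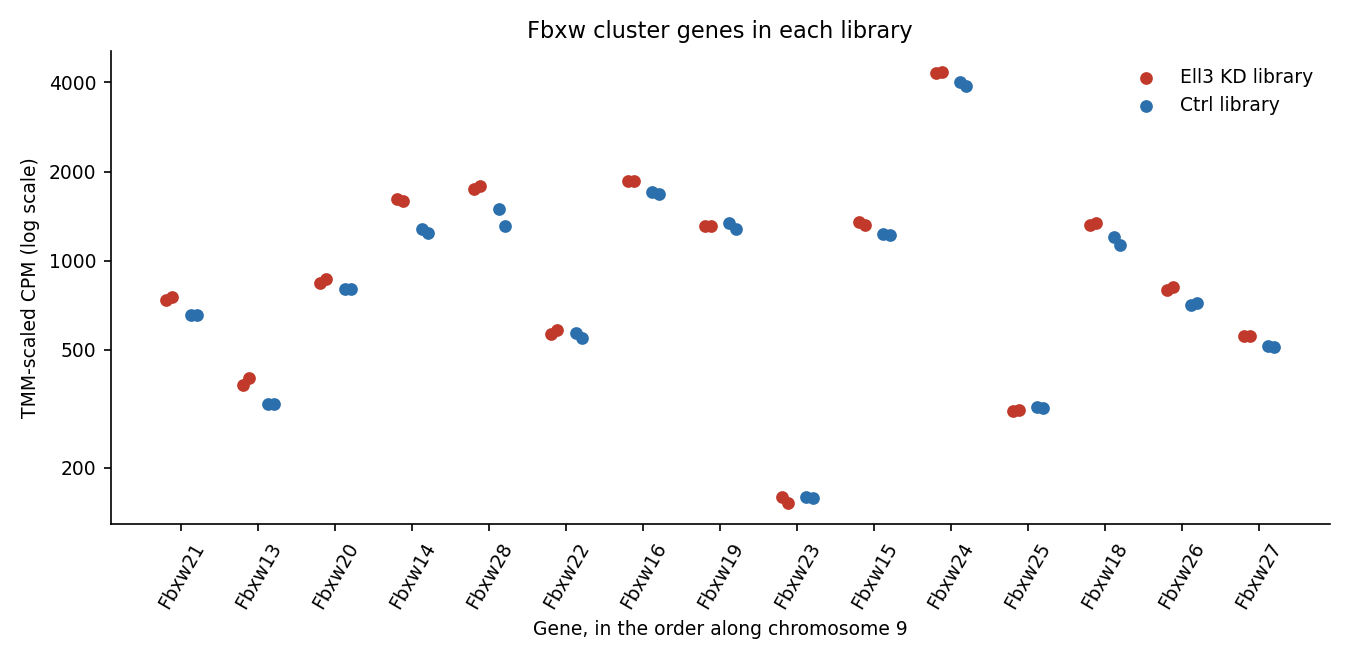
TMM-scaled CPM of the 15 array genes in each library on a log scale, in their order along chromosome 9, with Ell3 KD libraries in red to the left and Ctrl libraries in blue. Both red points lie above both blue points for the 11 genes called higher, and the points of Fbxw19, Fbxw22 and Fbxw23 overlap.

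For 4 members of the array the difference did not pass the test. Fbxw19 had 1312 and 1308 CPM in Ell3 KD, against 1337 and 1282 CPM in Ctrl, with a 95% interval of -0.06 to 0.06 for the log2 fold change. Fbxw22 had 564.4 and 583.1 CPM in Ell3 KD, against 571.8 and 550.1 CPM in Ctrl, with an interval of -0.03 to 0.10. For these genes the Ctrl libraries bracketed at least 1 Ell3 KD library. The pseudogene Fbxw23 had 159.1 and 152.4 CPM in Ell3 KD, against 159.5 and 159.0 CPM in Ctrl, with an interval of -0.11 to 0.04. Fbxw25 had 311.1 and 313.2 CPM in Ell3 KD, against 320.7 and 319.4 CPM in Ctrl, with an interval of -0.10 to 0.03. Its Ell3 KD libraries both lay below its Ctrl libraries, but the difference did not pass the test (adjusted p = 0.369 by edgeR). The intervals of these 4 genes do not reach those of Fbxw14, Fbxw28 or Fbxw13, whose lowest bound was 0.18. Those of Fbxw22, Fbxw19 and Fbxw23 overlap that of Fbxw20, among the smaller rises. The interval of Fbxw22, with an upper bound of 0.0955, also overlaps those of Fbxw24, Fbxw16, Fbxw15 and Fbxw27. That of Fbxw19 also overlaps that of Fbxw27. The difference between genes was not itself tested. By position, the 5 leftmost genes, Fbxw21 to Fbxw28, were all called higher, and the 4 uncalled genes lie to their right among 6 called ones.

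**Figure D4:**
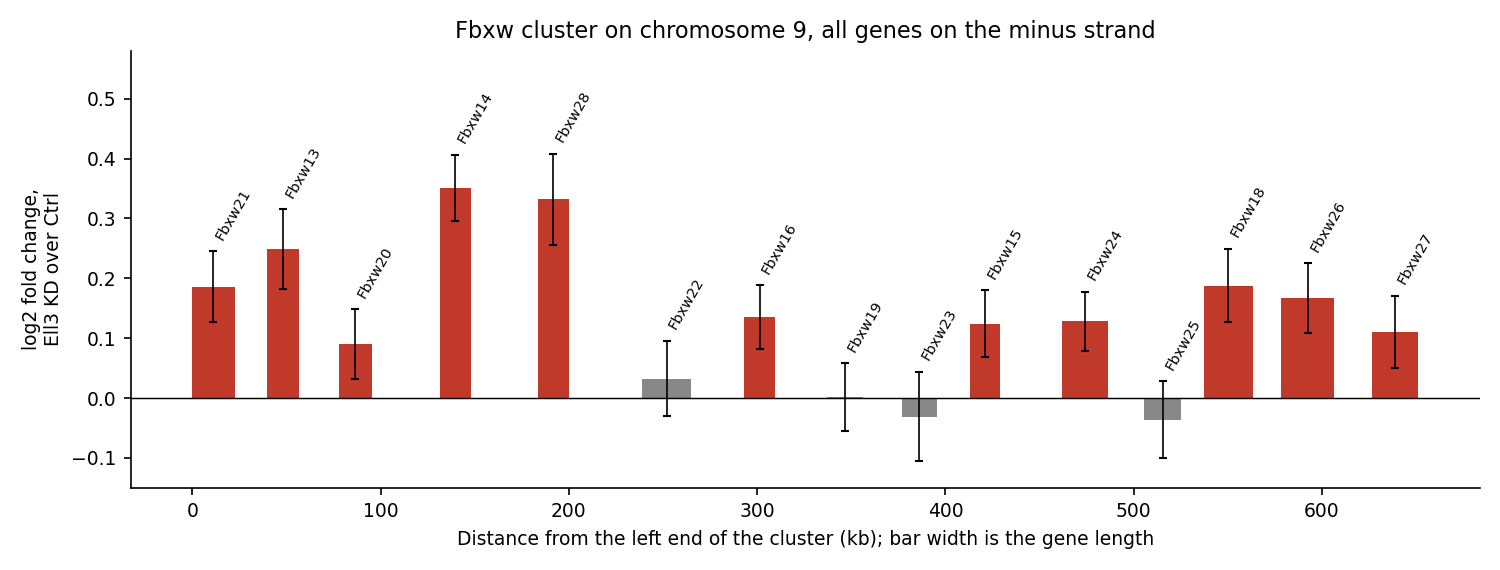
Log2 fold change of Ell3 KD over Ctrl (bars, with 95% intervals) at the position of each array gene, as distance in kb from the left end of the array, with bar width showing gene length. Red bars are genes called higher and grey bars those not called. The tallest bars are the adjacent Fbxw14 and Fbxw28, at 0.35 and 0.33.

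Other annotated genes within the array had few counts. Of 9, 3 were tested and none was called, the antisense gene Gm42493 at 1.86 and 1.79 CPM in Ell3 KD against 1.75 and 1.92 CPM in Ctrl being the highest. Of the 3 nearest protein-coding genes on each side, Tma7 rose (35.0 and 36.8 CPM in Ell3 KD, against 27.3 and 28.5 CPM in Ctrl, adjusted p = 2.19e-05 by edgeR), Ccdc51, Plxnb1 and Nme6 did not pass the test, and Spink8 and Camp were below the count filter.

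Level and transcript length also moved with the direction of change in these libraries. Of the 1387 genes tested at or above the mean level of the lowest array gene, 41.5% were called higher and 20.3% lower, with a median log2 fold change of 0.05. The longest transcripts of the array genes were 1388 to 2244 bases, with a median of 1678, against a median of 3688 for the 55 other F-box genes tested. Among all genes tested with transcripts of 2244 bases or less, 24.8% were called higher and 14.6% lower, against 19.0% higher and 26.7% lower among those with longer transcripts. Among the 506 genes with both that level and transcripts no longer than 2244 bases, 54.7% were called higher and 11.9% lower, with a median of 0.10, beside 73.3% and 0% of the array. After a length and GC trend fitted over all genes was taken out, the median of the array was 0.084 and that of all 70 F-box genes 0.021. Transcript length itself was not tested as a cause.

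Of the 9 Fbxw genes elsewhere in the genome, 4 fell and none rose, with a median log2 fold change of -0.18. Among all genes tested 21.1% were called higher and 21.8% lower, and among those with transcripts over 2244 bases 19.0% and 26.7%. Fbxw11 encodes beta-TrCP2, which recognises phosphorylated substrates such as beta-catenin and WEE1. It had 47.6 and 45.6 CPM in Ell3 KD, against 54.8 and 55.2 CPM in Ctrl, a log2 fold change of -0.24 ± 0.05 (adjusted p = 3.39e-04 by edgeR). Its paralog Btrc (beta-TrCP1), whose symbol does not follow the family pattern, had 437.1 and 433.5 CPM in Ell3 KD, against 470.8 and 459.8 CPM in Ctrl. Btrc fell by 0.10 ± 0.03 on the log2 scale (adjusted p = 0.0120 by edgeR). Both genes were lower in both Ell3 KD libraries than in either Ctrl library. Fbxw5 had 57.0 and 55.6 CPM in Ell3 KD, against 70.5 and 63.8 CPM in Ctrl, and fell by 0.25 ± 0.05 (adjusted p = 1.93e-04 by edgeR). Fbxw17 had 40.2 and 38.6 CPM in Ell3 KD, against 46.3 and 46.2 CPM in Ctrl, and fell by 0.23 ± 0.05 (adjusted p = 8.39e-04 by edgeR).

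Fbxw8, a partner of the cullin CUL7, had 17.9 and 19.0 CPM in Ell3 KD, against 24.9 and 19.5 CPM in Ctrl, a log2 fold change of -0.27 ± 0.09 (adjusted p = 0.0131 by edgeR). Without Ctrl replicate 1 that change was -0.09 and was not called (adjusted p = 0.493 by edgeR), nor was it called without Ell3 KD replicate 1 or with DESeq2, and 33.4% of its exon length overlaps Gm9754 on the opposite strand. Fbxw7, the F-box gene for cyclin E, MYC and NOTCH1, was low, at 7.22 and 5.88 CPM in Ell3 KD and 7.61 and 7.27 CPM in Ctrl. It did not pass the test, with a 95% interval of -0.43 to 0.08. Fbxw4, at 222.4 and 215.3 CPM in Ell3 KD and 227.8 and 201.5 CPM in Ctrl, was not called either. The Ctrl libraries of Fbxw4 lay on both sides of the Ell3 KD libraries, and without Ctrl replicate 1 it was called higher by 0.12 (adjusted p = 0.0141 by edgeR). Of its exon length, 21.4% overlaps Gm17018 on the opposite strand.

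Of the 17 Fbxl genes tested, 1 rose and 4 fell, with a median of 0.0022. These are 5.88% and 23.5%, beside 21.1% called higher and 21.8% lower among all genes, so the share that fell was near the background. The rise was Fbxl19, which encodes a protein with a CXXC zinc finger that binds unmethylated CpG islands. It had 39.0 and 37.5 CPM in Ell3 KD, against 29.0 and 28.4 CPM in Ctrl. The log2 fold change of 0.41 ± 0.06 (adjusted p = 2.46e-06 by edgeR) was the largest called rise among F-box genes with a mean of 1 CPM or more. Kdm2a and Kdm2b, F-box genes under other symbols that also have a CXXC finger, went the other way. Kdm2a (7.37 and 8.06 CPM in Ell3 KD, against 10.8 and 10.7 CPM in Ctrl) fell by 0.48 ± 0.10. Kdm2b (46.6 and 48.2 CPM in Ell3 KD, against 54.8 and 56.9 CPM in Ctrl) fell by 0.24 ± 0.05. The edgeR adjusted p was at most 5.13e-04 for both. Fbxl5 had 209.5 and 213.1 CPM in Ell3 KD, against 233.2 and 229.7 CPM in Ctrl, and fell by 0.13 ± 0.03 (adjusted p = 0.00238 by edgeR), a call lost without Ell3 KD replicate 1 (adjusted p = 0.0517 by edgeR). Fbxl2, Fbxl20 and Fbxl18 fell by 0.17 ± 0.05, 0.12 ± 0.04 and 0.21 ± 0.08, the last with an edgeR adjusted p of 0.0430 and none of the 3 called without Ctrl replicate 1. Without either Ell3 KD library Fbxl18 and Fbxl20 were not called, and DESeq2 did not call Fbxl18. Fbxl17 and Fbxl6 were not called, with 95% intervals of -0.08 to 0.08 and -0.04 to 0.10.

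Of the 29 Fbxo genes tested, 2 rose and 8 fell, with a median of -0.04, beside 21.1% and 21.8% of all genes and 26.7% lower among genes with longer transcripts. The helicase gene Fbxo18 had 101.5 and 102.1 CPM in Ell3 KD, against 129.9 and 124.6 CPM in Ctrl, and fell by 0.32 ± 0.04 (adjusted p = 2.81e-07 by edgeR). Fbxo33 had 16.4 and 17.8 CPM in Ell3 KD, against 21.3 and 21.7 CPM in Ctrl, and fell by 0.34 ± 0.07 (adjusted p = 6.19e-04 by edgeR). Fbxo30 had 387.4 and 391.8 CPM in Ell3 KD, against 444.8 and 454.9 CPM in Ctrl, and fell by 0.21 ± 0.03 (adjusted p = 5.25e-06 by edgeR). In all 3 both Ell3 KD libraries lay below both Ctrl libraries, with the Ell3 KD libraries of Fbxo33 farther apart than its Ctrl libraries. Fbxo21 had 43.7 and 43.8 CPM in Ell3 KD, against 51.7 and 51.1 CPM in Ctrl, and fell by 0.23 ± 0.05 (adjusted p = 5.04e-04 by edgeR). Fbxo10, which targets BCL2, fell by 0.20 ± 0.07, Fbxo31, which targets cyclin D1, by 0.15 ± 0.05, and Fbxo42 by 0.19 ± 0.07, with edgeR adjusted p of at most 0.0345. None of these 3 was called with DESeq2, and each lost its call in at least 2 of the 4 fits that left out a library. Fbxo34 had 249.1 and 245.5 CPM in Ell3 KD, against 272.0 and 254.4 CPM in Ctrl. Its fall of 0.09 ± 0.04 (adjusted p = 0.0409 by edgeR) was not called without Ctrl replicate 1 (adjusted p = 0.420 by edgeR), without either Ell3 KD library or with DESeq2 (adjusted p = 0.104).

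The rises among Fbxo genes were those of Fbxo36 and Fbxo16. Fbxo36 had 17.2 and 17.3 CPM in Ell3 KD, against 14.3 and 14.5 CPM in Ctrl, a log2 fold change of 0.26 ± 0.08 (adjusted p = 0.00871 by edgeR), which DESeq2 did not call (adjusted p = 0.0565). Fbxo16, singled out after its value was seen, was the only F-box gene called at 2-fold or more, where 4.18% of all genes were called higher and 5.20% lower by that much. It had 106 and 74 counts in Ell3 KD, against 25 and 24 in Ctrl, or 1.20 and 1.14 CPM in Ell3 KD against 0.547 and 0.486 CPM in Ctrl. The log2 fold change was 1.18 ± 0.34 (adjusted p = 0.00647 by edgeR), and it was not called without Ell3 KD replicate 1 (adjusted p = 0.0523 by edgeR) or with DESeq2 (adjusted p = 0.0511). Fbxo47, a gene of meiotic prophase, had 16.8 and 17.8 CPM in Ell3 KD and 16.1 and 18.2 CPM in Ctrl and did not pass the test. Fbxo28 and Fbxo8 were not called, with 95% intervals of -0.09 to 0.05 and -0.04 to 0.10. Fbxo2, Fbxo6, Fbxo17, Fbxo27 and Fbxo44 belong to an F-box family that includes binders of sugar chains. Fbxo17 lay at 16.8 and 16.3 CPM in Ell3 KD and 16.7 and 17.4 CPM in Ctrl. Fbxo6 had at most 37 counts in any library, and Fbxo2, Fbxo27 and Fbxo44 had at most 10. Apart from Fbxo16 and the members taken by the naming rule, 35 were tested. Of these, Fbxl2, Fbxl20, Fbxo31 and Fbxo42 fell and the others were not called, with log2 fold changes of -0.61 to 1.06.

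Some calls depended on single libraries. The share of all genes called in each of the 4 fits is not given here, so the counts below show no trait particular to F-box genes. Of the 16 genes called lower, 7 were called in each of the 4 fits that left out a library, and of the 14 called higher, 12 were. Without Ctrl replicate 1, 9 members were called lower. The 7 were Fbxo18, Fbxo21, Fbxo30, Fbxo33, Fbxw5, Fbxw11 and Fbxw17. DESeq2 called 12 of the 14 rises and 10 of the 16 falls, where it called 12.2% of all genes higher and 12.3% lower. It also called Fbxo32 lower (adjusted p = 0.00829), which had too few counts for the edgeR test.

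Summed over the 62 genes outside the array, F-box transcripts were at 3163 and 3171 CPM in Ell3 KD, against 3378 and 3314 CPM in Ctrl. This sum was 5.35% lower in Ell3 KD and that of the array 11.5% higher, each with an exact two-sided permutation p of 0.333, the smallest possible. All levels are shares of a library, so RNA per oocyte cannot be read from them.

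Genes that complete the ligase changed in both directions. Of 35 tested genes for SCF subunits, the NEDD8 pathway, the COP9 signalosome and associated ubiquitin-conjugating enzymes, 16 rose and 4 fell, with a median log2 fold change of 0.08, beside 21.1% higher and 21.8% lower among all genes. Many of the 35 are abundant, and among genes at or above the lowest array level 41.5% were called higher and 20.3% lower. The adaptor gene Skp1a, whose product links F-box proteins to CUL1, had 3518 and 3630 CPM in Ell3 KD, against 3003 and 3192 CPM in Ctrl. It rose by 0.21 ± 0.03 (adjusted p = 1.41e-06 by edgeR). The RING gene Rbx1 had 277.9 and 277.3 CPM in Ell3 KD, against 214.0 and 223.7 CPM in Ctrl, and rose by 0.34 ± 0.03 (adjusted p = 1.03e-08 by edgeR). Rnf7, which encodes the related RING protein RBX2, rose by 0.46 ± 0.06, and Cks1b, the cofactor of the F-box protein SKP2, by 0.32 ± 0.03, each with an edgeR adjusted p of at most 7.57e-07. The scaffold gene Cul1 had 713.8 and 731.4 CPM in Ell3 KD and 728.1 and 723.0 CPM in Ctrl and did not pass the test (adjusted p = 0.887 by edgeR). The conjugating enzyme gene Ube2d3, the most abundant of the list by CPM, had 4218 and 4313 CPM in Ell3 KD and 4134 and 4171 CPM in Ctrl and did not pass either (adjusted p = 0.200 by edgeR). The signalosome subunit gene Gps1 had 276.3 and 273.8 CPM in Ell3 KD, against 329.4 and 330.6 CPM in Ctrl, and fell by 0.26 ± 0.03 (adjusted p = 2.60e-07 by edgeR). Cand1, the exchange factor for F-box proteins, fell by 0.21 ± 0.04 (Cand1 and Cul1 fall outside the naming rule).

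**Figure D5:**
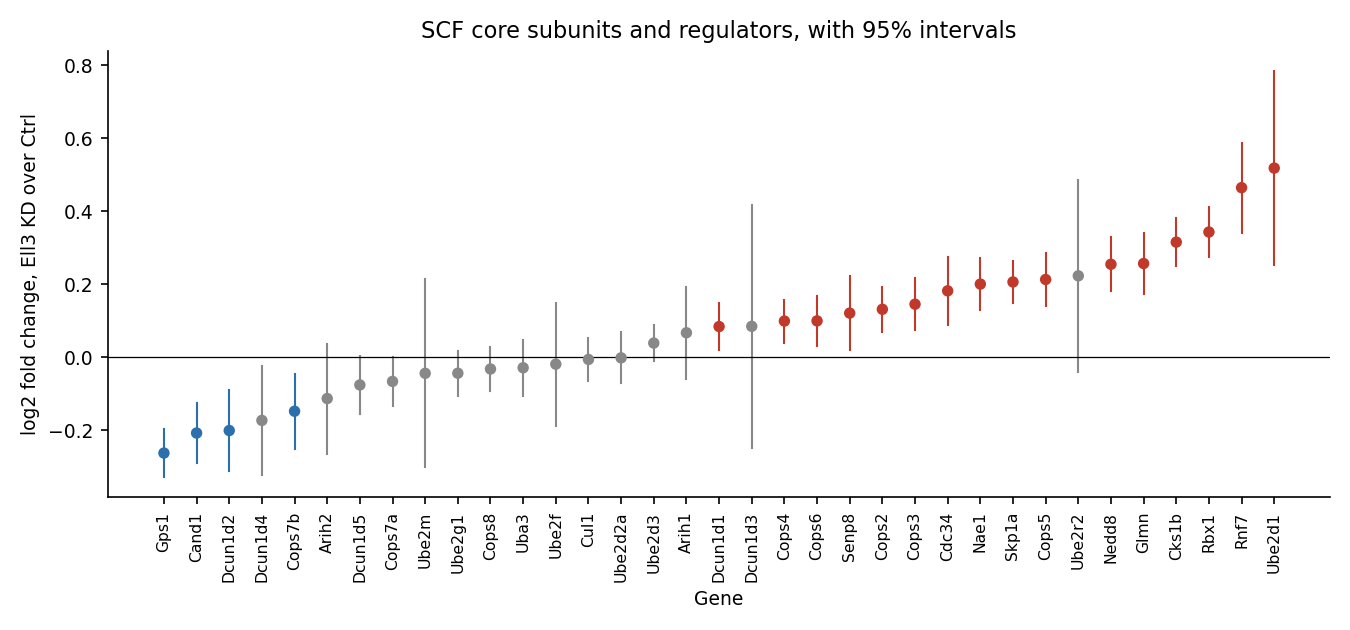
Log2 fold change of Ell3 KD over Ctrl with 95% intervals for 35 genes of the SCF core and its regulators, ordered by size. Red marks 16 genes called higher, blue 4 called lower and grey the rest. Gps1 is lowest of all and Ube2d1 highest.

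Of 7 tested F-box genes under other symbols, 5 fell and 1 rose, with a median of -0.16, beside 21.8% lower and 21.1% higher among all genes. Besides Btrc, Kdm2a and Kdm2b, these were Ccnf, the cyclin F gene, which fell by 0.16 ± 0.05 (adjusted p = 0.0182 by edgeR), and Lrrc29. Lmo7, a large actin-associated protein gene that also carries an F-box, had 281.5 and 289.5 CPM in Ell3 KD, against 270.5 and 267.9 CPM in Ctrl, and rose by 0.08 ± 0.03 (adjusted p = 0.0368 by edgeR). Skp2, which targets the inhibitor p27, did not pass the test (adjusted p = 0.0668 by edgeR).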

How the data were processed

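The deposited files hold unnormalised counts per gene symbol, all whole. FastQC 0.11.5, HISAT2 2.2.1.0 and featureCounts are named with build mm10, per the submitters' processing notes. The annotation, the strand setting and the treatment of multi-mapping reads are not given in the sources used here. Per the labels' protocols, Smart-seq2 libraries had 16 PCR cycles and were read at 150 bp from both ends, so limits from counts of 0 (3 counts) cover counting error only.

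Groups came from the sample titles. All 4 libraries were fitted with edgeR 4.0.16 in R 4.3.3 (filterByExpr, TMM factors of 0.984 to 1.015, glmQLFit, glmQLFTest, no covariates), and p-values were adjusted over the 17879 genes that passed the filter. Standard errors were the log2 fold change over the root of F, and 95% intervals used the t quantile of the fit. The fit was tested on simulated counts.

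RPKM used exon lengths of GENCODE M21 (GRCm38, the assembly of mm10); 76 members matched by symbol and 1, Fbxo18, through a RefSeq synonym. Transcript and promoter identities came from global alignment in Biopython 1.88. A planned comparison of proteins was replaced by one of transcripts, since no protein table was used here.

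Alternatives were RLE factors, DESeq2 1.42.0, other count filters, a replicate block, libraries left out, and an assumed coefficient of variation. Same-numbered libraries did not deviate together (correlation 0.04). The members, lists and rules were chosen with earlier results of these data known. The naming rule took the array, the 10 other members with the highest RPKM, the 10 largest called rises and falls at 1 CPM or more, and from each list the 2 highest and up to 4 called genes with the smallest p. Members named beyond it, such as Fbxw7 or Fbxo47, were added for their known roles or to complete a count. The values of 1 member are not reported here, though it enters every count.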

Additional observations from a re-analysis of the deposited data

How the results depend on the processing

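Of the results described, the counts and medians kept their size under RLE factors and under a filter of 1 CPM in 2 libraries. With the assumed coefficient of variation of 0.2, all genes gave 861 rises and 1103 falls, F-box genes 1 and 0, and the array 0 rises. Leaving out 1 library gave 13 to 16 F-box rises, 9 to 14 falls, 10 to 11 array rises, an array median of 0.12 to 0.14 and a median over all F-box genes of -0.031 to -0.0045. Where this leaves an arm with 1 library, that library is assumed to vary like the others. The array median was 0.14 without a count filter and 0.084 with the length and GC trend removed, where the median of all F-box genes was 0.021. The summed array was higher by 0.12 on the log2 scale by plain totals, against 0.16 with TMM factors. The cause was not tested. Of the named members, 4 that were not called changed sign with a library left out: Fbxw19 (range -0.031 to 0.030, lowest without Ctrl replicate 2), Fbxw4 (-0.060 to 0.12, lowest without Ctrl replicate 2), Fbxl17 (-0.046 to 0.046, and below 0 at -0.046 and -0.0054 without Ctrl replicate 2 and without Ell3 KD replicate 2) and Fbxw23 (-0.060 to 0.0033, highest without Ell3 KD replicate 2). The replicate block gave 14 F-box rises and 16 falls and 11 array rises, beside 3894 rises and 3987 falls over all genes. It changed no call of a named gene. The labels do not tie the numbers to animals or days, and same-numbered libraries did not deviate together. With Fbxw14 and Fbxw28 summed, an alternative chosen after seeing the data, 10 array genes were called higher, the pair counting as 1. Having 2 libraries a group limits the precision of every value.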

Other observations

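Genes for described substrates of F-box proteins changed in both directions. Of 38 tested, 11 rose and 11 fell, with a median log2 fold change of 0.04, beside 21.1% higher and 21.8% lower among all genes tested and 23.8% and 23.9% among those at 1 CPM or more. Of the 4 with the smallest p, Wee1, the CDK1-inhibiting kinase gene, had 11.7 and 13.6 CPM in Ell3 KD, against 24.9 and 24.6 CPM in Ctrl, and fell by 0.97 ± 0.08 (adjusted p = 4.56e-10 by edgeR). Mdm2, the p53 ligase gene, had 139.3 and 138.8 CPM in Ell3 KD, against 112.9 and 113.2 CPM in Ctrl, and rose by 0.30 ± 0.04 (adjusted p = 4.33e-07 by edgeR). Cdc25a, the phosphatase gene that opposes WEE1, had 50.4 and 50.6 CPM in Ell3 KD, against 37.6 and 39.5 CPM in Ctrl, and rose by 0.39 ± 0.05 (adjusted p = 1.30e-06 by edgeR). Pdcd4, a translation inhibitor gene, rose by 0.25 ± 0.04. The list's most abundant genes were Slbp, the histone mRNA binding protein gene, which rose by 0.18 ± 0.03, and Cpeb1, the regulator of cytoplasmic polyadenylation, which fell by 0.13 ± 0.03 (adjusted p = 4.10e-04 by edgeR). These proteins are regulated by degradation, and their mRNA levels say nothing of that.

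Of the genes set aside at the start, Fbxo5 (EMI1) had 227.6 and 233.8 CPM in Ell3 KD, against 206.8 and 215.6 CPM in Ctrl, and rose by 0.13 ± 0.03 (adjusted p = 0.00430 by edgeR). Fbxo43 (EMI2) had 112.9 and 113.5 CPM in Ell3 KD and 110.0 and 119.4 CPM in Ctrl and did not pass the test.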
